A study of Mus musculus with 3 samples.

Results

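Timd4-negative Kupffer cells (KCs) are liver macrophages that carried the KC genes Clec4f and Vsig4 but no molecule of Timd4, the gene of the phosphatidylserine receptor TIM4. The cells were selected on their own counts of unique molecular identifiers (UMIs). A cell needed 200 to 4000 genes, at least 2000 UMIs, a mitochondrial share of at most 25%, at least 10 UMIs of Clec4f and Vsig4 together and 0 UMIs of Timd4. It could hold at most 1 UMI of Cd3e, Cd79a and Ptprb together (T cell, B cell and endothelial genes) and fewer than 5 UMIs of the cell cycle genes Mki67, Top2a, Cdk1, Ube2c and Birc5. In all, 214 of 52335 cells met this rule. They were 175 of 30734 cells of the MCD-titled library and 39 of 21601 cells of the HFHC pool, both described below. Cells within the same limits that held at least 1 Timd4 UMI, 2234 and 279 cells, are called Timd4-positive KCs and served for comparison within each library.

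KCs are the macrophages that line the liver sinusoids, where they clear particles, dying cells and old red cells from portal blood. Most descend from embryonic precursors and maintain themselves, and such cells carry TIM4 in the mouse. When KCs are lost, monocytes recruited from blood can fill the empty places and take on KC genes such as Clec4f and Vsig4, whereas Timd4 is gained late. Absence of Timd4 in a Clec4f-positive cell is therefore widely used to mark a recently settled KC, although in sequencing data a shallow cell can also lack the molecule by sampling.

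Liver non-parenchymal cells of mice were captured with the BD Rhapsody system, which tags the RNA of single cells, as 1 MCD-titled library and 1 HFHC pool. The MCD-titled library is named after the title of its sample, and its table was given to that sample because the other samples are of the HFHC pool. Its diet is not settled: the paper describes single-cell data of wild-type (WT) mice on a normal chow diet (NCD), it uses a methionine-choline deficient (MCD) diet elsewhere, and the file header names the library APAP0h. The name of its table gives WT, and neither the labels nor the values state a genotype or a further diet. The HFHC pool holds cells of WT and Chi3l1-/- mice on a high-fat, high-cholesterol (HFHC) diet together, with no genotype given per cell in the table used. Chi3l1 protein is encoded by Chil1, and the number of mice per library is not given in the sources used here. With 1 library of each kind, the effects of diet, of genotype, of capture and of the library itself cannot be told apart. No test was possible, and cells were not treated as replicates. Levels are given as CPM, for which the UMIs of a gene in all cells of a class were divided by all UMIs of that class and put on the counts-per-million scale. Brackets give exact 95% intervals for counting error only, and they take UMIs as independent although many can come from the same cell.

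The members of the 2 libraries differed in depth. In the MCD-titled library, Timd4-negative KCs held a median of 3132 UMIs (lowest 2010, highest 12150) against 5684 in Timd4-positive KCs. In the HFHC pool the medians were 10541 (lowest 2134, highest 18241) and 11424 UMIs. Of the members, at least 5000 UMIs were held by 24 of 175 (MCD-titled) and 30 of 39 (pool). The mitochondrial share had a median of 8.16% in the members and 6.76% in the Timd4-positive KCs of the MCD-titled library, and of 6.25% and 7.45% in the pool. Scrublet called 31 of the 175 members of the MCD-titled library doublets (17.7%, against 9.40% of its Timd4-positive KCs) and 1 of the 39 members of the pool (2.56%, against 0.717%). The libraries shared 756 cell barcodes over all cells and 0 among the KCs compared here.

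Timd4-negative cells made up 7.26% (6.26 to 8.37%) of the 2409 KCs of the MCD-titled library and 12.3% (8.87 to 16.4%) of the 318 KCs of the HFHC pool. The share in the MCD-titled library was lower in each deeper band of UMIs. It was 24.0% (81 of 338 cells) below 3000 UMIs, 9.83% (70 of 712) from 3000 to below 5000, 2.06% (23 of 1117) from 5000 to below 10000 and 0.413% (1 of 242) at 10000 or more. Of its 175 members, 151 had fewer than 5000 UMIs. The HFHC pool showed 28.6% (6 of 21), 12.5% (3 of 24), 8.33% (7 of 84) and 12.2% (23 of 189) in the same bands, so that the deepest band held 23 of its 39 members. The limit of 4000 genes bears on the deep bands of the pool. It left out 481 KCs of the pool, all with at least 13872 UMIs, of which 26 (5.41%) lacked Timd4. In the MCD-titled library it left out 23 KCs, of which 0 lacked Timd4. Without this limit the share of the pool was 8.14%, and its shares by depth were not computed. Among cells with at least 5000 UMIs the shares were 1.77% (1.13 to 2.62%) for the MCD-titled library and 11.0% (7.54 to 15.3%) for the pool. After thinning these cells to 5000 UMIs each, Timd4 was missing in 3.75% (2.81 to 4.90%) of 1359 MCD-titled cells and in 13.9% (10.04 to 18.6%) of 273 cells of the pool. Thinned to 2000 UMIs, all gated cells of the libraries gave 23.9% and 32.1%, of which most were Timd4-positive before thinning (401 of 576 cells and 63 of 102). The 102 cells of the pool without Timd4 after thinning held Cd163 at 328 CPM, C6 at 1167 CPM and Cd207 at 255 CPM, between the values of members and Timd4-positive KCs given further on.

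**Figure D1:**
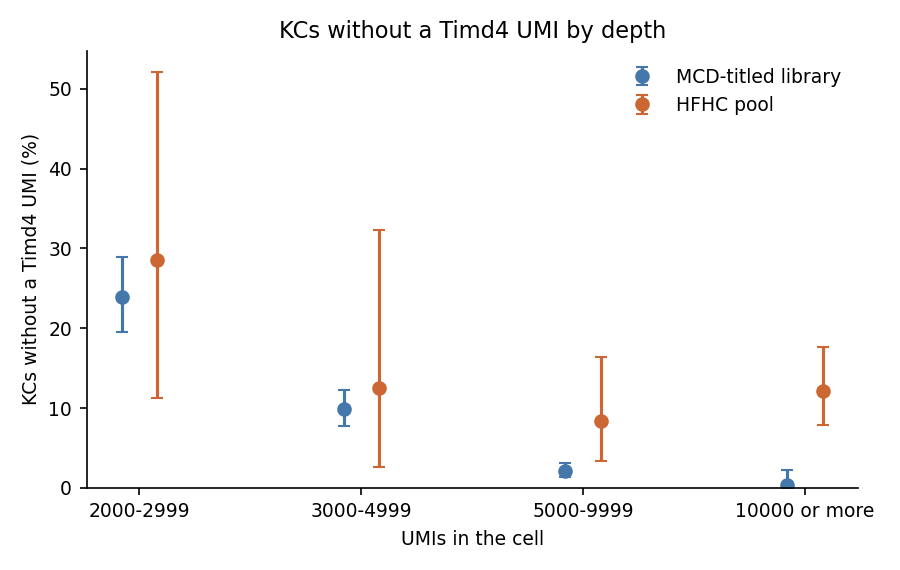
Share of KCs without a Timd4 UMI (percent, y axis) against the UMIs of the cell (bands, x axis) in the MCD-titled library and the HFHC pool; points are shares and bars exact binomial 95% intervals for counting error. The share ran from 24.0% in the shallowest band to 0.413% in the deepest for the MCD-titled library, whereas the pool had 12.2% in the deepest band. KCs above 4000 genes are not drawn, which leaves out 481 deep KCs of the pool, 5.41% of them without Timd4, and 23 of the MCD-titled library.

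The values next to the limits of the rule describe the selection. Cells with exactly 1 Timd4 UMI numbered 296 (MCD-titled), at a median of 3558.5 UMIs, and 12 (pool), at a median of 4282 UMIs. In the pool these cells held Cd163 at 465 CPM and C6 at 1709.9 CPM, against 31.1 and 151 CPM at 0 Timd4 UMIs, whereas Marco was at 199 CPM against 129.8 CPM. Their Cx3cr1 was at 0 of 60236 UMIs, against 434 CPM at 0 Timd4 UMIs. At the limit on Clec4f and Vsig4, 13 members of the MCD-titled library and 3 of the pool held 10 to 12 UMIs of both genes together. Cells that held 7 to 9 UMIs and no Timd4, and were left out, numbered 13 and 6. In those 13 cells of the MCD-titled library Cx3cr1 was at 764 CPM and Ccr2 at 677 CPM, while both were at 0 in its 13 members just inside. In the pool Cx3cr1 was at 1154 CPM in the 3 cells just inside and at 227 CPM in the 6 just outside. Ccr2 went the other way there, at 199 CPM inside and 453 CPM outside, as did Cd207, at 239 and 1744 CPM. Cd207 in the MCD-titled library was at 311 CPM inside and 611 CPM outside. The Clec4f and Vsig4 UMIs together had a median of 8330 CPM per cell in members and 9003 CPM in Timd4-positive KCs of the MCD-titled library, and of 3325 and 8088 CPM in the pool.

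The members were checked against KC genes that the rule did not use. Clec1b, the lectin receptor CLEC-2 and a KC marker in liver, had 1 or more UMIs in 102 of 175 members of the MCD-titled library and in 35 of 39 members of the pool. Thinned to 2000 UMIs, Clec1b was found in 46.3% of members and 46.7% of Timd4-positive KCs of the MCD-titled library, against 64.1% and 69.2% in the pool. B cells, which should lack it, gave 2.51% and 0.375%, at unthinned medians of 2765 and 2981 UMIs. The Clec1b level was 315 CPM (272 to 364) in members of the MCD-titled library against 329 CPM (319 to 338), and 522 CPM (452 to 599) in members of the pool against 572 CPM (545 to 600). Cd5l, a secreted protein of tissue macrophages, was at 2603 and 3268 CPM in the members and at 14.0 and 56.8 CPM in macrophages without KC genes. Those reference cells, 63 of the MCD-titled library and 94 of the pool, held at least 10 UMIs of C1qa, C1qb and C1qc, at least 2 of Ccr2 and Cx3cr1 and at most 1 of Clec4f, Vsig4, Timd4 and Clec1b, and are called C1q macrophages. The low Clec1b level of C1q macrophages is fixed by this gate, whereas Cd5l was not used in it. Against Timd4-positive KCs, Cd5l had log2 ratios of -0.37 in the MCD-titled library and -0.39 in the pool. Other KC markers were lower in members too. Adgre1 had -0.24 and -0.28, Cd163 -0.24 and -4.20, and Marco -0.68 and -2.29, in the same order.

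Timd4-negative KCs of the HFHC pool differed from their Timd4-positive neighbours in a set of scavenger, complement and chemokine genes. Of 4653 genes with at least 100 UMIs in the 2 classes together, 107 (2.3%) were at least 2-fold higher and 116 (2.49%) at least 2-fold lower in Timd4-negative KCs, with a median log2 ratio of 0.07 over all of them. In the MCD-titled library 266 of 8543 genes (3.11%) were at least 2-fold higher and 88 (1.03%) at least 2-fold lower, with a median of 0.08. At least 2-fold higher in both libraries were 4 of 4637 genes tested in both (0.0863%), and 1 (0.0216%) was at least 2-fold lower in both. These counts were 9 and 14 among cells with at least 5000 UMIs, and ran from 0 to 83 and from 0 to 16 over all settings tried. The 4 genes were Cx3cr1, Mmp13, Itgax and Slamf7, and the gene lower in both was Retnla. In the pool Cx3cr1, Mmp13 and Itgax had fewer than 100 UMIs in Timd4-positive KCs. They were tested there only because the UMIs of the members, in which they were higher, were added. All log2 ratios were computed with 1 UMI added to each class.

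**Figure D2:**
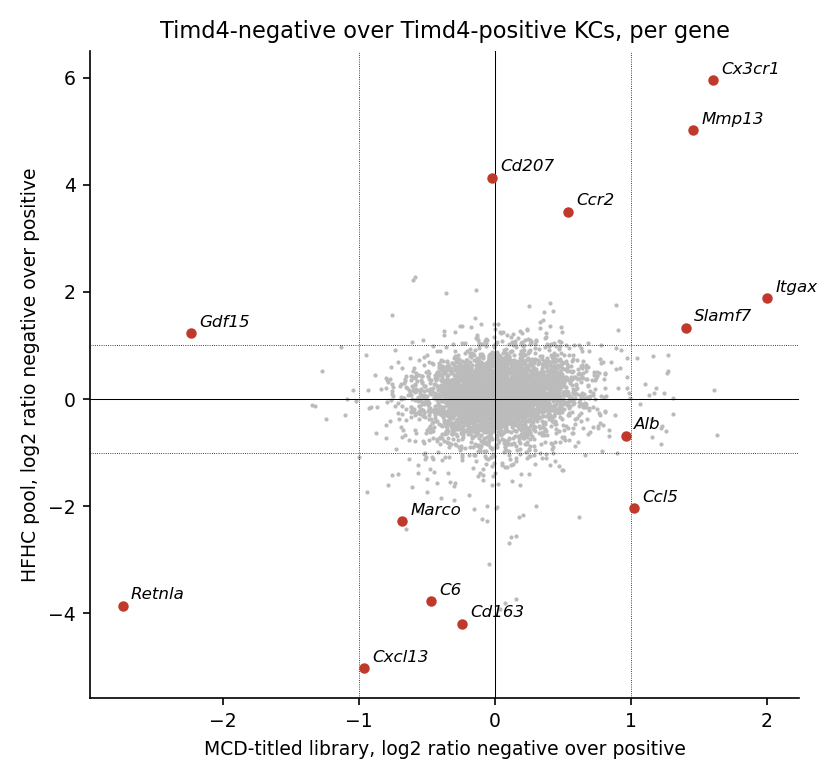
Log2 ratio of Timd4-negative over Timd4-positive KCs for each gene tested in both libraries, MCD-titled library on the x axis and HFHC pool on the y axis; grey points are genes, red points named genes, and dotted lines mark 2-fold. Cx3cr1 (1.60 and 5.96) and Mmp13 (1.46 and 5.02) lay at upper right, and Cd163 (-0.24 and -4.20) and C6 (-0.47 and -3.78) far down near the vertical axis.

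The scavenger receptors Cd163 and Marco were lower in the members of the pool, on a list of which 4 of 23 tested genes were at least 2-fold lower and 2 at least 2-fold higher. Cd163, the receptor for haptoglobin and hemoglobin (chromosome 6, 124304656 to 124330527, plus strand, GRCm38), was at 31.1 CPM (16.1 to 54.4), from 12 UMIs in 5 of 39 cells, against 619 CPM (591 to 648) in Timd4-positive KCs. Its log2 ratio was -4.20 (-5.27 to -3.50), whereas in the MCD-titled library it was -0.24 (-0.38 to -0.11), at 808 against 956 CPM. Marco, a receptor for bacteria and particles (chromosome 1, 120474538 to 120505024, minus strand), was at 129.8 CPM against 646 CPM in the pool. In the pool 31 of the 50 Marco UMIs of the members lay in 1 cell, and its log2 ratio was -2.29 (-2.75 to -1.91) in the pool and -0.68 (-0.90 to -0.49) in the MCD-titled library. Folr2, a folate receptor of resident macrophages, had log2 ratios of -1.57 (-1.79 to -1.37) and -0.43 (-0.53 to -0.33), and Fcna, the lectin ficolin A, of -1.88 and -0.30. These 4 genes were the members of the list of KC surface and scavenger genes that were at least 2-fold lower in the pool, of 23 tested. Stab1, a clearance receptor, and Cd207 were at least 2-fold higher there, and the list had medians of -0.21 in the pool and -0.23 in the MCD-titled library. Csf1r, the receptor for the macrophage growth factor CSF1, was at 2650.3 CPM in members and 3191 CPM in Timd4-positive KCs of the pool, a log2 ratio of -0.27.

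Several complement genes were lower in the members of the pool. C6, a component of the membrane attack complex (chromosome 15, 4727175 to 4814967, plus strand), was at 151 CPM (114 to 195) in members of the pool and at 2099.7 CPM (2048 to 2152) in Timd4-positive KCs, a log2 ratio of -3.78 (-4.20 to -3.43). C2 and C4b, which together form the classical C3 convertase, had log2 ratios of -3.81 (3 against 435 UMIs) and -2.58 (31 against 1488 UMIs). The recognition subunits C1qa, C1qb and C1qc were nearer to 0, with -0.44, -0.29 and -0.45. The receptors for the cleaved fragments went the other way, with C3ar1 at 0.84 and C5ar1 at 0.98. C6, C2 and C4b were at least 2-fold lower and Itgax at least 2-fold higher, and the list had a median of -0.45. C2 and C4b were at 0.08 and 0.12 in the MCD-titled library, and the median of the list was 0.01.

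The receptors Cx3cr1 and Ccr2 of monocytes and recruited macrophages were higher in the members of the pool, while 7 of 10 monocyte genes tested had lower levels and 3 higher ones. Cx3cr1, the fractalkine receptor (chromosome 9, 119901616 to 120069879, minus strand), was at 434 CPM (370 to 505), from 167 UMIs in 17 of 39 cells, against 6.68 CPM (4.08 to 10.3) in Timd4-positive KCs, a log2 ratio of 5.96 (5.35 to 6.77). C1q macrophages of the pool held 661 CPM, a level that their gate on Ccr2 and Cx3cr1 sets in part. Ccr2, the receptor that brings monocytes out of bone marrow, was at 187 CPM (146 to 235) against 16.4 CPM (12.1 to 21.7), with 2183 CPM in C1q macrophages. Thinned to 2000 UMIs, Cx3cr1 was found in 25.6% (13.0 to 42.1%) of members, 1.08% of Timd4-positive KCs, 54.3% of C1q macrophages and 0.751% of B cells, and unthinned in 17 of 39 and 11 of 279 KCs. Ly6c2, the marker of classical monocytes, gave 1 UMI over all 39 members. Of the list of monocyte genes in the pool, Ccr2 and Cx3cr1 were at least 2-fold higher and Fn1 at least 2-fold lower among 10 tested, and its median was -0.08. The MCD-titled library had a median of 0.09 over this list.

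Cd207, the lectin langerin, lies next to Clec4f on chromosome 6 (83671215 to 83677857, with Clec4f at 83644542 to 83656187, both on the minus strand). In the pool it was at 649 CPM (571 to 735) in members, 36.8 CPM (30.2 to 44.3) in Timd4-positive KCs and 11.9 CPM in C1q macrophages, a log2 ratio of 4.13 (3.81 to 4.48). Cd207 was higher in the members than in both classes set beside them. It was not particular to the members, since the 6 cells of the pool just outside the gate held it at 1744 CPM. Thinned to 2000 UMIs, it was found in 43.6% (27.8 to 60.4%) of members, 5.38% of Timd4-positive KCs, 3.19% of C1q macrophages and 0.250% of B cells. The MCD-titled library held 238 CPM (201 to 280) in members and 243 CPM (235 to 252) in Timd4-positive KCs, a log2 ratio of -0.02 (-0.28 to 0.21). Reads of neighbouring genes were taken as the pipeline assigned them.

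Lipid-associated macrophage genes, a set found in macrophages of fatty liver and fat tissue, were the list with the highest median in the pool. Of 12 tested, 7 were at least 2-fold higher and 0 at least 2-fold lower in members of the pool, with a median log2 ratio of 1.30 beside 0.07 over all genes. Gpnmb, a lysosomal glycoprotein, was at 283 CPM (232 to 341) against 49.1 CPM (41.5 to 57.7), with 862 CPM in C1q macrophages. Its log2 ratio was 2.53 (2.16 to 2.89), that of Cd63, a tetraspanin of lysosomes, 2.52 (2.13 to 2.90), and that of the elastase Mmp12 2.18 (1.86 to 2.49). Trem2, the lipid-sensing receptor, was at 371 CPM (313 to 437) against 134 CPM (121 to 148), with 316 CPM in C1q macrophages. Itgax, Cd9 and Gdf15 were the others at least 2-fold higher, at 1.89, 1.36 and 1.24. The median of this list in the MCD-titled library was -0.01, with Itgax, Fabp5 and Fabp4 at least 2-fold higher and Gdf15 at least 2-fold lower. Gpnmb was listed there at 0 UMIs in the members and at 12 UMIs in the Timd4-positive KCs. After thinning to 2000 UMIs the pool median was 0.09, where fewer genes reach 100 UMIs.

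**Figure D3:**
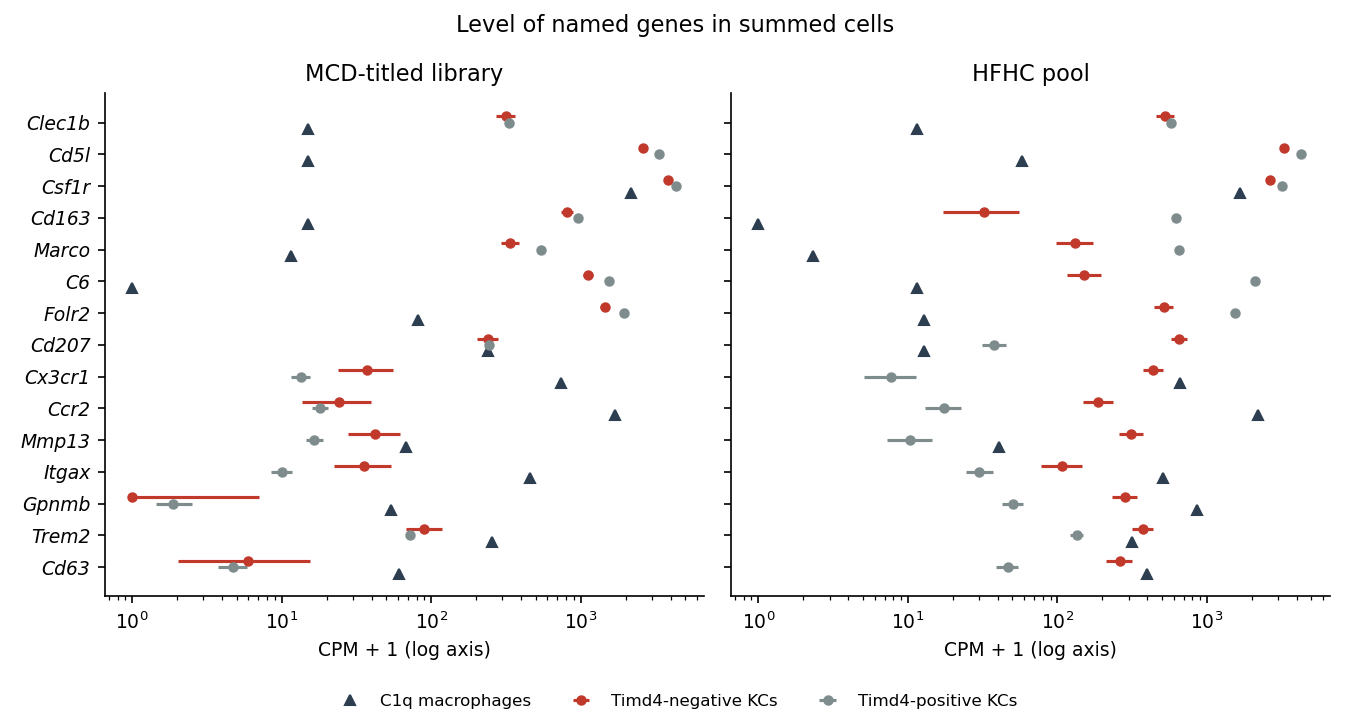
Levels of 15 genes (CPM + 1, log axis) in Timd4-negative KCs, Timd4-positive KCs and C1q macrophages of each library; bars are exact Poisson 95% intervals, drawn for the KC classes. In the HFHC pool Cd163, Marco and C6 were lower and Cd207, Cx3cr1, Ccr2 and Gpnmb higher in the Timd4-negative KCs. In the MCD-titled library the intervals of the KC classes were apart upward for Cx3cr1, Mmp13 and Itgax. They were apart downward, by less than 2-fold, for Cd5l, Csf1r, Cd163, Marco, C6 and Folr2.

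Chemokines and cytokines showed both directions in the pool. Of 18 tested, 7 were at least 2-fold higher (Ccl3, Ccl4, Cxcl2, Cxcl10, Il1a, Il1b and Tgfb1) and 3 at least 2-fold lower (Cxcl13, Ccl24 and Cxcl9), with a median of 0.59. Among cells above 4000 genes, which the rule leaves out, the log2 ratios of Cxcl10 (-2.19), Il1b (-0.065) and Cxcl9 (1.48) had the opposite sign, and without the gene limit that of Cxcl9 was 0.75. Cxcl13, which attracts B cells, was at 2.60 CPM (1 UMI) against 169.8 CPM, with a log2 ratio of -5.03 (-11.3 to -3.55). Ccl3, which attracts monocytes and T cells, was at 459.5 CPM against 117 CPM, with 1.98 (1.70 to 2.24). A few cells carried much of some values: 73 of 98 Cxcl10 UMIs, 82 of 403 Cxcl2 UMIs and 78 of 120 Mmp13 UMIs of the members came from the highest cell. The list had a median of -0.38 in the MCD-titled library, where Csf1 was at least 2-fold higher and Il6 and Il10 at least 2-fold lower.

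Of 9 antigen presentation genes tested in the pool, 7 had higher and 2 lower levels in members, and 0 were 2-fold apart. Cd74, the invariant chain, was at 15892 against 11795 CPM, a log2 ratio of 0.43 (0.39 to 0.47), and H2-Aa had 0.50 (0.44 to 0.56). The median was 0.50 in the pool and 0.10 in the MCD-titled library. Immediate-early and heat-shock genes, which also respond to cell isolation, had a median of 0.61 in the pool, with Egr2, Egr3, Nr4a1 and Btg2 of 24 at least 2-fold higher, and of 0.00 in the MCD-titled library. For Egr3, 39 of 44 UMIs of the members came from 1 cell. Their part in the other ratios was not tested.

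The remaining lists had at most 2 members at least 2-fold apart in the pool. KC transcription factors had medians of -0.05 in the pool and 0.04 in the MCD-titled library, with Zfp36l1 the 1 of 15 at least 2-fold higher in the pool, and Spic, which directs heme-handling macrophages, at -0.86. Efferocytosis and lipid receptors had 0.22 and -0.02. Their kinase receptors Axl and Mertk were at -0.02 and 0.10 in the pool, while Timd4, a receptor for the same phosphatidylserine signal, was absent by selection. Apoe, the lipid carrier, was at 25756 against 19026 CPM in the pool (0.44), and Apoc1 at 724 against 3012 CPM (-2.05). Iron and heme genes had medians of -0.35 and -0.22, with Cd163 and Hmox1, the heme oxygenase, at least 2-fold lower in the pool. Medians were between -0.15 and -0.05 in both libraries for lysosome genes and Fc receptors, and -0.13 and -0.02 for glycolysis. Apoptosis genes had 0.18 and -0.07, apoptosis inhibitors 0.22 and 0.01, and interferon-stimulated genes -0.45 and -0.06.

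**Figure D4:**
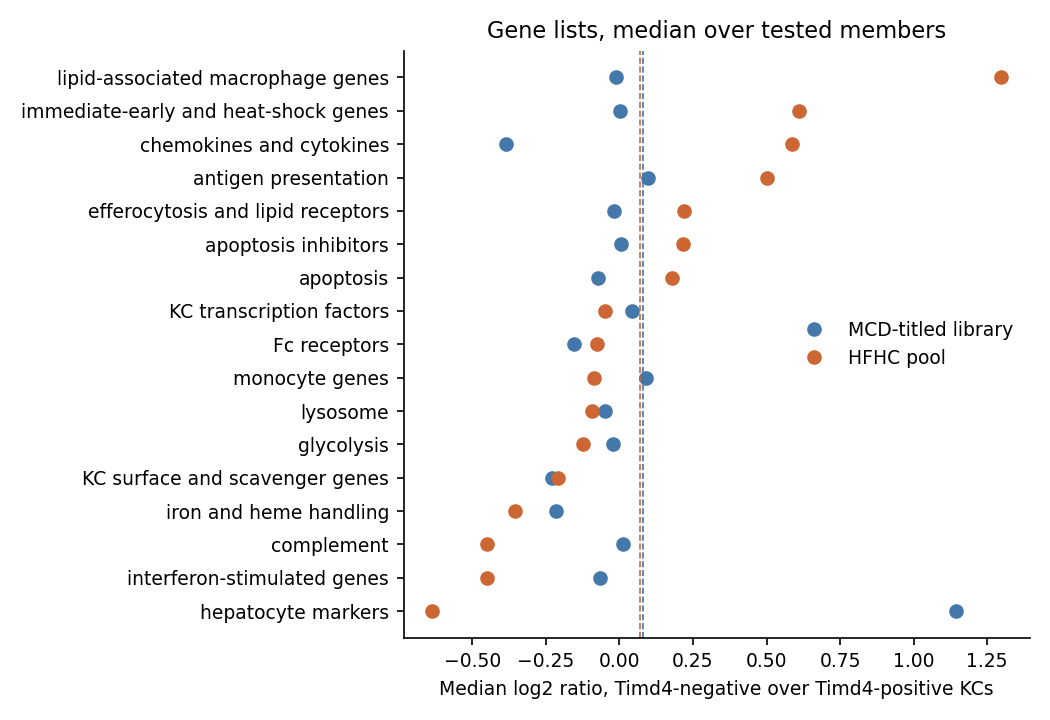
Median log2 ratio of Timd4-negative over Timd4-positive KCs (x axis) of each gene list with at least 3 genes tested in both libraries; dashed lines are the medians over all genes tested, 0.08 for the MCD-titled library and 0.07 for the HFHC pool. The lipid-associated list lay at 1.30 in the pool and at -0.01 in the MCD-titled library, and hepatocyte markers at -0.64 and 1.14.

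Markers of other cells moved with the class in the MCD-titled library. Hepatocyte markers had a median of 1.14 there, with 11 of 18 at least 2-fold higher, a summed level of 5269 CPM in members against 3564 CPM, and 0 of 18 at 0 in members. By cell, their summed level ran from 247 to 94453 CPM (median 3772) in members and from 328 to 50844 CPM (median 3140.4) in Timd4-positive KCs. Alb, serum albumin, was at 958 against 492 CPM, and without cells over 1% hepatocyte UMIs the median of the list was 0.32. Neutrophil markers had a median of 0.96 over 7 genes, with 1199 against 649.8 CPM and up to 75069.5 CPM in 1 cell. This median was -0.92 among cells with at least 5000 UMIs and 0.16 without called doublets. T and NK cell markers had 0.92 over 6 genes, with 182 against 106 CPM, and their median was -0.81 and -0.18 under the same settings. Endothelial, B cell, dendritic cell and stellate cell markers had medians from 0.33 to 0.50 there on 2 to 7 genes, and red cell markers -2.02 on 4. In the pool hepatocyte markers went the other way, at -0.64, with 1552 against 4256 CPM and 2 of 18 at 0 in members. Of 12 tested there, 11 had lower levels, and Apoc1 was the 1 at least 2-fold lower. Apoc1 made up 724 and 3012 CPM of these sums. It was found, after thinning to 2000 UMIs, in 21 of 39 members, 272 of 279 Timd4-positive KCs and 160 of 799 B cells of the pool. The sums of the pool therefore cannot be read as hepatocyte RNA alone, and the list without Apoc1 was not tested. The pool had at most 2 tested genes on each of the other lists, with summed neutrophil markers at 249 against 74.9 CPM, up to 8165 CPM in 1 member, and T and NK cell markers at 36.3 against 119 CPM. The part of these cells or of their free RNA in the other ratios was not tested.

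The 39 members of the pool were also read cell by cell, with genes that were chosen after their values were seen. Of the 30 members with at least 5000 UMIs, 26 (86.7%, 69.3 to 96.2%) had no UMI of Cd163, Marco and C6, against 2 of 243 Timd4-positive KCs of that depth (0.823%). A UMI of Cx3cr1 or Ccr2 was found in 22 of the 30 (73.3%, 54.1 to 87.7%) and in 23 of 243 (9.47%). Both features together were seen in 21 of the 30 (70.0%, 50.6 to 85.3%) and in 0 of 243, which allows a share of up to 1.23%. Cd207 was found in 20 of the 30 and in 28 of 243 (11.5%). At least 2 of Gpnmb, Mmp12, Cd63 and Gdf15 were found in 16 of the 30 and in 34 of 243 (14.0%). The features overlapped in part, since 18 cells held Cd207 with Cx3cr1 or Ccr2, and 10 held Cd207 with the lipid-associated genes. Among the 9 members under 5000 UMIs, 3 had no Cd163, Marco and C6 UMI, and 0 of 9 had a Cx3cr1 or Ccr2 UMI, which allows a share of up to 33.3%.

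**Figure D5:**
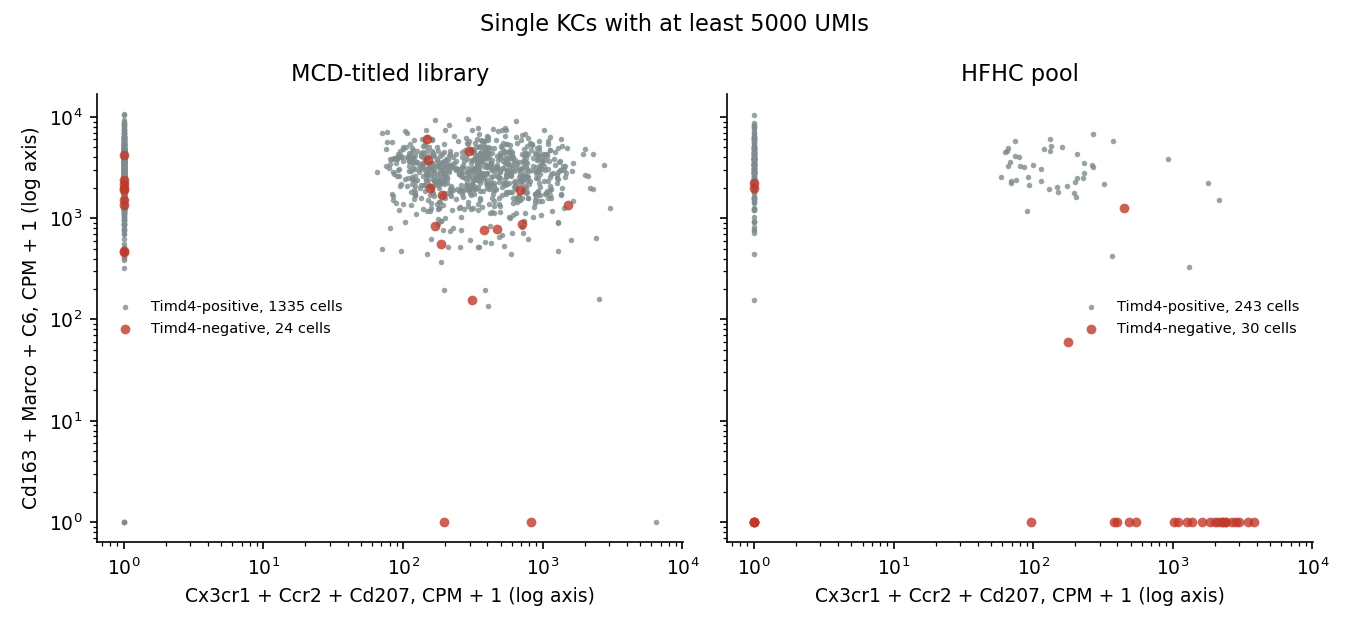
Single KCs with at least 5000 UMIs, by the summed level of Cx3cr1, Ccr2 and Cd207 (x axis) and of Cd163, Marco and C6 (y axis), both as CPM + 1 on log axes; points are cells, and a cell without a UMI sits at 1. In the HFHC pool 26 of 30 Timd4-negative KCs lay at the bottom, and in the MCD-titled library 2 of 24.

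The deep members of the MCD-titled library differed from those of the pool in the same genes. Of the 24 with at least 5000 UMIs, 2 had no UMI of Cd163, Marco and C6 (8.33%, 1.03 to 27.0%), beside 5 of 1335 Timd4-positive KCs. A UMI of Cx3cr1 or Ccr2 was found in 6 of the 24 and in 106 of the 1335 (7.94%). At least 2 of the lipid-associated genes were found in 0 of the 24, which allows a share of up to 12.5%. Cd163 in these 24 cells was at 432 CPM against 971 CPM in Timd4-positive KCs of that depth, and C6 at 971 against 1579 CPM. Hepatocyte markers had a median log2 ratio of 2.04 in the same cells, and their part in these values was not tested. Among the genes higher in both libraries, Itgax (CD11c, an integrin) was at 34.7 CPM against 9.01 CPM in the MCD-titled library, from 21 UMIs in 8 of 175 cells. In the 13 members next to the gate it was at 285 CPM, and with at least 20 Clec4f and Vsig4 UMIs its log2 ratio was -0.01. After thinning to 2000 UMIs Itgax was found in 3.43% of members, 1.03% of Timd4-positive KCs and 4.18% of B cells. Cx3cr1 rested on 22 UMIs in 11 cells, at 36.3 CPM (22.8 to 55.0) against 12.4 CPM, and Mmp13, the collagenase, on 25 UMIs in 15 cells. Slamf7, a receptor of immune cells, had log2 ratios of 1.40 and 1.33 in the libraries, and the first was -0.34 with at most 10% mitochondrial UMIs. Thinned to 2000 UMIs, Cx3cr1 was found in 2.86% of members of the MCD-titled library and in 1.79% of Timd4-positive KCs and 2.93% of B cells, of which Scrublet called 34.3% doublets, and Mmp13 in 6.86% of members, 1.88% of Timd4-positive KCs and 0% of B cells (0 of 239, which allows up to 1.26%). Retnla, the gene lower in both, came from 6 of 2234 and 2 of 279 Timd4-positive KCs.

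Levels of the members were set side by side between libraries, with the same ratio in Timd4-positive KCs. Of 1741 genes with at least 100 UMIs in the members together, 98 (5.63%) were at least 2-fold higher and 95 (5.46%) at least 2-fold lower in the HFHC pool, with a median log2 ratio of 0.01. Cx3cr1 was higher in the members of the pool by 3.52 (2.93 to 4.29) and lower in its Timd4-positive KCs by a ratio of -0.83 (-1.64 to -0.22). Cd163 had -4.58 (-5.66 to -3.88) in members and -0.63 (-0.70 to -0.56) in Timd4-positive KCs, and C6 had -2.87 and 0.44. Each of these 3 ratios lay further from 0 in the members than in Timd4-positive KCs. These genes were named because they ranked highest or lowest in the members, so their larger size there follows in part from that choice. It cannot be read as a difference between the classes, which was not tested. Among genes with at least 10 UMIs in the members of each library, the highest ratios also included Il1rn, Cxcl2, Fosb, Egr1 and Pld3, from 3.40 to 4.18, and these were higher in Timd4-positive KCs as well, from 2.41 to 3.26. Below that limit, Gpnmb had 109 UMIs in the pool and 0 in the other library, and Cd63 100 and 3 UMIs. Both were higher in Timd4-positive KCs of the pool as well. Thinned to 2000 UMIs, Gpnmb was found in 5.02% of these cells and in 0.0448% of those of the MCD-titled library. For Cd63 the shares were 7.17% and 0.448%. The lowest within the limit included Serpina1e, Mup3, Mup20 and S100a9, genes of hepatocytes and neutrophils, which were lower in Timd4-positive KCs too. S100a9 lay further from 0 in Timd4-positive KCs, at -5.89 against -2.65 in the members. Chil1, the gene of Chi3l1, gave 5 UMIs in 1 of 39 members of the pool and 0 in 279 Timd4-positive KCs, and 3 UMIs in 2 of 175 members of the MCD-titled library against 53 UMIs in 36 of 2234.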

How the data were processed

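Mouse liver non-parenchymal cells were measured in 2 expression tables, whose deposited counts are error-corrected UMIs per gene and cell that the authors made, per the file headers, with the BD Rhapsody WTA Analysis Pipeline 1.10.1 on GENCODE M19 and GRCm38. The sample of sample tags was not used. Counts were neither normalized nor corrected for free RNA. KCs were gated by the limits given above, and the members, gene lists and rule for named genes were chosen with earlier results of these data known. Named genes were list members, the 12 highest and 12 lowest ratios shared by both libraries, and the 6 highest and 6 lowest ratios between libraries. UMIs were summed per class (Python 3.11.15, numpy 2.4.6, scipy 1.17.1). CPM has exact Poisson, shares exact binomial (Clopper-Pearson) and ratios exact conditional binomial 95% intervals. A count of 0 allows 3 counts. Interval code was tested on simulated data. Doublets were called with Scrublet (scanpy 1.11.5) and removed only as an alternative. Gene positions are from GENCODE on GRCm38. The members held 605412 UMIs (MCD-titled) and 385235 UMIs (pool). Alternatives changed depth, gates, filters and centring, and no test was made. A few list members are not reported here.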

Additional observations from a re-analysis of the deposited data

Results flagged for a closer look

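The rule left out cells above 4000 genes. In the HFHC pool 26 of 481 such KCs had no Timd4 UMI (5.41%, 3.56 to 7.82%), and in the MCD-titled library 0 of 23, which allows a share of up to 13.0%. Those 26 cells held Cx3cr1 at 227 CPM against 2.35 CPM in the Timd4-positive KCs above 4000 genes, Cd207 at 618 against 25.5 CPM, Gpnmb at 890.2 against 106.5 CPM, Cd163 at 3.32 against 619 CPM and C6 at 250.3 CPM against 2264 CPM. No UMI of Cd163, Marco and C6 was found in 14 of the 26 and in 0 of 455, which allows a share of up to 0.659%. Other genes did not keep their sign in these cells, with log2 ratios of -2.19 for Cxcl10, 1.48 for Cxcl9 and -0.065 for Il1b against 2.28, -1.09 and 1.23 in the members.

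Some values had opposite signs in the libraries, a difference that was not tested. Gdf15 had log2 ratios of -2.24 in the MCD-titled library (1 UMI in members against 214) and 1.24 in the HFHC pool. Ccl5 had 1.03 in the MCD-titled library, where 30 of 39 UMIs of the members came from 1 cell, and -2.04 in the pool. The median of lipid-associated macrophage genes was -0.012 and 1.30, and that of hepatocyte markers 1.14 and -0.64.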

How the results depend on the processing

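No paired analysis was possible because each group holds 1 library. Of 2019 values under alternatives, 1716 moved by less than their counting interval, or by less than 1.5 times for counts of genes, 296 moved further and 7, all of genes at least 2-fold apart, changed sign. In the MCD-titled library the medians of neutrophil (-0.92 to 1.23), T and NK cell (-0.81 to 1.24) and endothelial markers (-0.16 to 0.70) and of chemokines (-0.47 to 0.10) changed sign too. The other list medians that did so, in either library, had main values between -0.13 and 0.10. Under alternatives they ran from -0.33 (complement, MCD-titled library) to 0.47 (monocyte genes, MCD-titled library). At a minimum of 5000 UMIs the MCD-titled library kept 24 members (1.77% of its KCs), 892 genes were at least 2-fold higher and 299 lower, 9 higher and 14 lower in both libraries, and 31 lower in the pool than in the MCD-titled library. Medians of that library were then -0.43 for KC surface genes, 0.39 for antigen presentation, -0.32 for complement and 2.04 for hepatocyte markers. With Timd4-positive KCs also held to 3 or more Timd4 UMIs, a setting chosen after seeing the data, these values were 24, 821, 297, 9, 13 and 31, and -0.43, 0.37, -0.33 and 2.07. Thinned to 2000 UMIs, which leaves fewer genes to test, cells without Timd4 were 23.9% and 32.1%, genes higher were 79 (MCD-titled) and 16 (pool), genes lower in the pool 22, shared genes 0 and 0, genes higher and lower between libraries 38 and 48, and the lipid-associated median in the pool 0.088. With at least 20 UMIs per gene, genes of the MCD-titled library higher and lower were 1235 and 162, those of the pool 624 and 430, those of both 83 and 16, with 449 and 519 between libraries. Without the upper limit on genes the pool had 65 members (8.14%), 167 genes higher and 266 lower, 17 and 8 shared with the MCD-titled library, 172 higher between libraries, and an immediate-early median of 0.32. With only cells above 4000 genes, also chosen after seeing the data, these were 5.41%, 175, 313 and 0.19. At most 10% mitochondrial UMIs left 112 members of the MCD-titled library (5.50%) and 0 genes lower in both. At least 20 Clec4f and Vsig4 UMIs gave 5.49% in the MCD-titled library, 2 and 2 shared genes, a hepatocyte median of 0.63 and a lipid-associated median in the pool of 0.94. At least 1 Clec1b UMI left 102 members of the MCD-titled library (5.46%), 140 genes lower and a hepatocyte median of 0.78, which was 0.32 without cells over 1% hepatocyte UMIs. Genes lower in both were 2 with stricter Timd4-positive KCs, 2 without called doublets and 4 after centring. Signs changed in the pool above 4000 genes for Cxcl10 (-2.19), Cxcl9 (1.48, and 0.75 without the gene limit), Il1b (-0.065) and Rab28 (0.42), and in the MCD-titled library for Itgax (-0.013, at least 20 Clec4f and Vsig4 UMIs) and Slamf7 (-0.34, at most 10% mitochondrial UMIs). Where no construction is named, the cause was not tested. With 39 members in the pool and 24 deep members in the MCD-titled library, genes under 100 UMIs were left out of all but the setting with 20 UMIs.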
